A study of Drosophila melanogaster with 2 samples.

Results

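The forkhead genes considered here are 8 members of the Drosophila melanogaster Fox family: CHES-1-like, bin, croc, jumu, foxo, FoxK, FoxP and FoxL1. They were taken by name, without the sloppy paired pair, from 18164 annotated genes on the 6 main chromosome arms. For each gene the deposited regions of Engrailed-GFP binding were collected whose summit fell in the gene window, here from 5000 bp before the 5′ end of the gene to 1000 bp past its 3′ end. The summit is the position of highest signal that the authors recorded for a region.

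Engrailed binding was profiled by ChIP-seq, the sequencing of immunoprecipitated chromatin, in whole embryos of both sexes, aged 0 to 16 h. The embryos came from strain 3T-GFP, a transgenic line that stably expresses en fused at its C-terminal end to GFP. The description names an anti-GFP antibody, while the antibody label reads "en". All values belong to a single group with 2 biological replicates, numbered 1 and 3, and no control library was analysed here. A whole embryo holds cells that do and do not express en, so a value is an average over all tissues of these ages.

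The authors deposited 30000 regions for each replicate and for the pool of both, ranked by signal and reaching down into background. They also deposited 1 list of 2226 peaks from the irreproducible discovery rate (IDR) procedure, which assesses how well replicate rankings agree. In dm6, the genome build used for every coordinate here, these are the 2226 regions of highest pooled signal. A place in the list therefore does not show that the replicates agree closely on that region. Pooled signal ran between 65.1 and 1022 in the IDR list, with a median of 97.5. Among the 2226 highest regions of each replicate the lowest signal was 28.5 in replicate 1 and 40.1 in replicate 3. Signal is the authors' own unit, and read depth is unknown from the lists, so no counting interval can be given for a region. Both replicates and the pool rest on the same 2 libraries, and no statistical test was made on regions of a gene, which share those libraries.

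Forkhead proteins bind DNA through a winged-helix domain, and a core of their site reads TAAACA. Engrailed is a homeodomain protein that mostly represses transcription, through sites built around TAATTA or CAATTA, and it marks the posterior compartment of each segment. The 8 genes act in different places. CHES-1-like and jumu act in the specification and division of heart progenitors, bin in the visceral mesoderm, FoxL1 in positioning the salivary gland and croc in the head. foxo works downstream of insulin signalling, FoxK in the midgut, and FoxP in the adult brain.

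CHES-1-like held 9 IDR summits in its window, and the other 7 genes held 6 between them. jumu held 2, bin, foxo, FoxK and FoxL1 held 1 each, and croc and FoxP held none. In all, 6 of the 8 genes held an IDR summit, against 21.3% of all annotated genes. The windows of the 8 have a median length of 11.7 kb, beside 7.66 kb for all genes. The highest 2226 regions of replicate 1 reached 4 of the 8 genes (all genes, 21.1%) and those of replicate 3 reached 5 (all genes, 21.2%). Every one of the 8 windows held a region of the pooled list, as did 77.4% of all windows, so presence in that list separates the genes little.

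**Figure D1:**
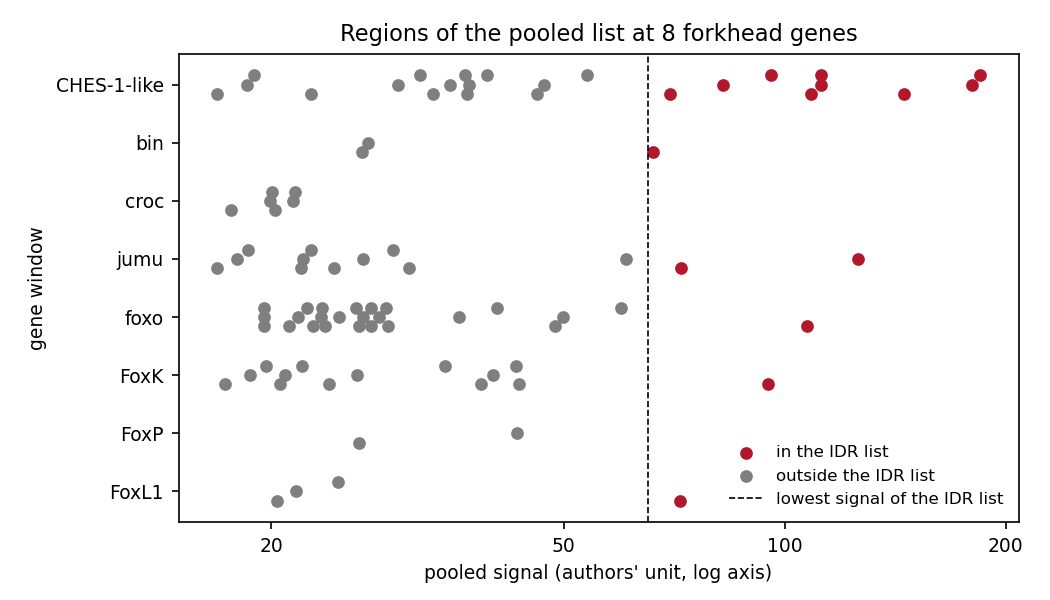
Pooled signal of each deposited region with its summit in the window of 1 of the 8 forkhead genes (horizontal log axis, authors' unit; each point is 1 region, and vertical offsets only separate points). CHES-1-like has 9 red points right of the dashed line, which marks the lowest signal of the IDR list (65.1), jumu has 2, and croc and FoxP have none.

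CHES-1-like (FBgn0029504) lies on the minus strand at X:7682338-7709385. Its 4 annotated transcripts start from 4 alternative first exons, 0, 4422, 12681 and 14467 bp from the 5′ end, and splice to the same second exon. The coding sequence, between 7685918 and 7689995, begins in that second exon. All 9 IDR summits lay upstream of it, 8 in the first intron and 1 in the most distal first exon. They spanned 18367 bp, with gaps of 789 to 6075 bp between neighbours (median 1379.5 bp, n = 8 gaps). None lay in the coding sequence or upstream of the gene.

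The 9 peaks are numbered here in the direction of transcription. Peak 1, with its summit at 7709218, lay in exon 1 (X:7708995-7709385), 167 bp inside the gene, with a pooled signal of 180, 79.1 in replicate 1 and 103 in replicate 3. Peak 2, with its summit at 7703143, was the highest of the gene, at 185 in the pool (rank 297 of the 30000), 60.1 in replicate 1 and 124 in replicate 3. These were the top 2 regions of the gene in both replicates, in opposite order. Peak 3 at 7701770 had 95.8 in the pool, 36.2 in replicate 1 and 55.9 in replicate 3. Peak 4 at 7700474 had 112 in the pool but only 23.2 in replicate 1 (rank 3347), beside 88.4 in replicate 3 (rank 513). Peak 5 at 7698430 had 146 in the pool, 55.3 in replicate 1 and 91.4 in replicate 3, and was 133 bp wide where the other 8 were 396 bp. Peaks 2 to 5 all lay between the most distal first exon and the start at 7696704.

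Peak 6, at 7697044, lay 340 bp upstream of the first exon that starts at 7696704, inside the intron of the longer transcripts. It had a signal of 112 in the pool, 50.5 in replicate 1 and 65.4 in replicate 3. Peaks 7, 8 and 9 lay between the most proximal transcription start site (TSS) and the coding sequence. Peak 7 at 7692884 had 82.5 in the pool, 33.3 in replicate 1 and 46.4 in replicate 3. Peak 8 at 7692095 had 109, 31.9 and 74.8 in the same order. Peak 9 at 7690851 was the lowest of the 9 in the pool at 69.8 (rank 1974). It was high in replicate 1, at 47.8 (rank 813), and low in replicate 3, at 24.0 (rank 6818).

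**Figure D2:**
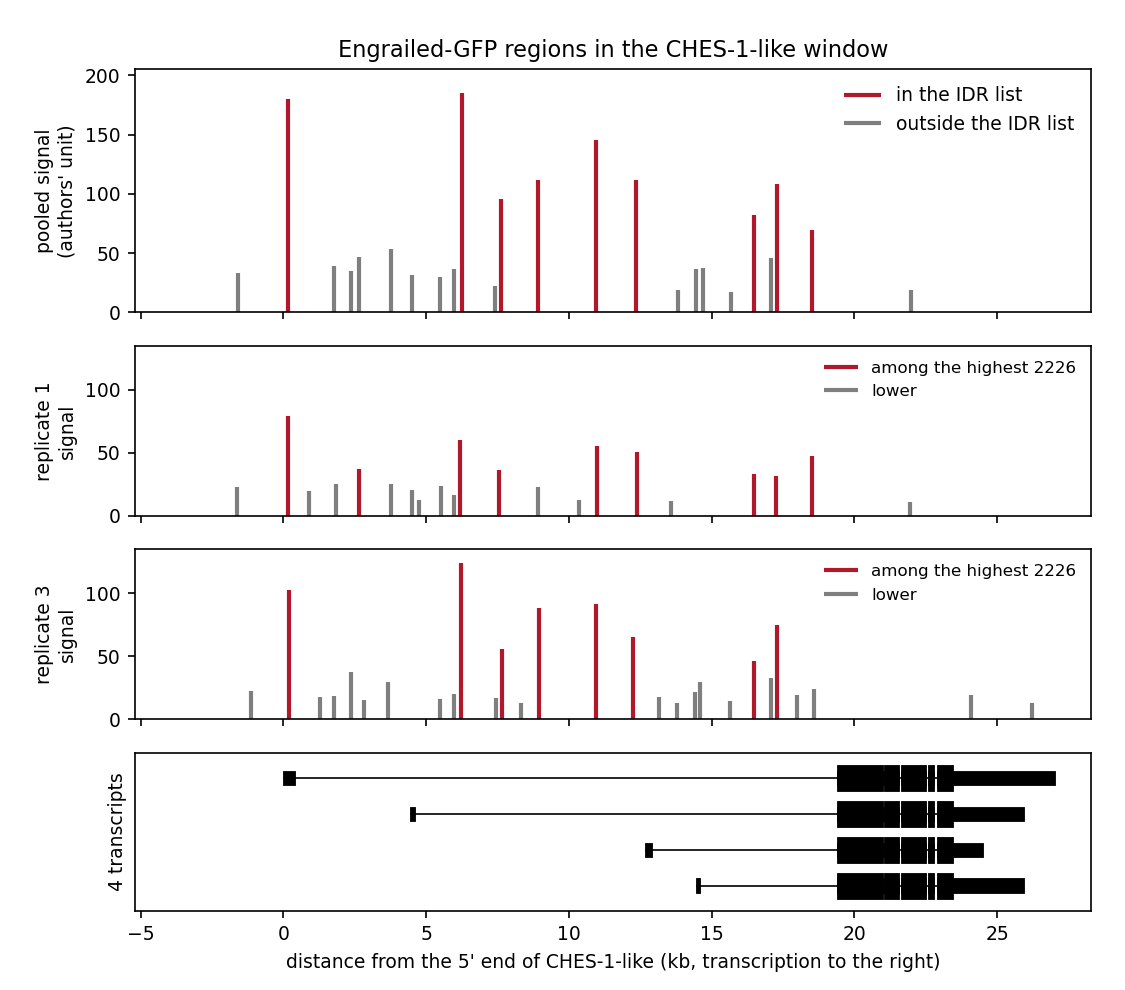
Signal of each region in the CHES-1-like window against its distance from the gene's 5′ end (kb; upper panel the pooled list, then replicate 1 and replicate 3, authors' unit) above the 4 transcripts, with coding sequence as tall boxes. Red lines mark the 9 IDR regions in the pool, and in each replicate panel the regions among its highest 2226, 9 in replicate 1 and 8 in replicate 3; none of the red lines falls on the coding exons.

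Signal at the 4 transcription start sites of CHES-1-like was uneven. The highest pooled region within 500 bp reached 180 (rank 314) at the most distal TSS and 112 (rank 856) at the start at 7696704. It reached 31.9 (rank 8742) at the start at 7704963 and 37.2 (rank 6394) at the start at 7694918, both outside the IDR list. Replicate 3 had no region near the start at 7704963, and replicate 1 had none near the start at 7694918. Both starts with an IDR summit nearby therefore had a region in each replicate, and the other 2 had one in a single replicate.

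Besides the IDR peaks, the CHES-1-like window held 15 lower pooled regions, between 16.8 and 53.8 in signal. The highest of them, at 7705618, stood at rank 3119, below the IDR list. Another, at 7706729 with 47.0 in the pool, was among the highest 2226 regions of replicate 1 (36.9, rank 1350). Of the 24 pooled regions, 22 lay in the 19390 bp between the coding start and the 5′ end of the gene, and 1 lay in the 7658 bp from the coding start to the 3′ end. The long noncoding RNA gene lncRNA:CR43287 lies within the first intron, on the plus strand, and its window also takes in peaks 1 and 2. For all 9 IDR summits the nearest TSS was nevertheless one of CHES-1-like.

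Sequence at the CHES-1-like peaks is shown for 4 of them: the highest peak, the peak beside an internal start, and the 2 peaks whose replicates differed most. Each line gives the plus strand of dm6, from the RefSeq release 6 genome, over 101 bp centred on the summit. Capitals mark the motif matches, TAATTA in peak 2, CAATTA read on the minus strand in peak 6, and GAGAG read on the minus strand in peak 9. Peak 2 is at X:7703093-7703193, peak 4 at X:7700424-7700524, peak 6 at X:7696994-7697094 and peak 9 at X:7690801-7690901.
CHES-1-like peak 2: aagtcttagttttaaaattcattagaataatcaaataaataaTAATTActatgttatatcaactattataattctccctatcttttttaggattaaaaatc
CHES-1-like peak 4: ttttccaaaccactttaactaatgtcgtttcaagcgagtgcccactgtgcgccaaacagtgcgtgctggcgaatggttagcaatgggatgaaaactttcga
CHES-1-like peak 6: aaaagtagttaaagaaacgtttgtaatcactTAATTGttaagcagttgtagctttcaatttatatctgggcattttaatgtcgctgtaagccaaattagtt
CHES-1-like peak 9: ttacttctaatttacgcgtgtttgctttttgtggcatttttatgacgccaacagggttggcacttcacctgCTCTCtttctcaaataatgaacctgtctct

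Peak 2, the highest, was also the richest in A and T, with 17.8% G+C. Peak 6 had 29.7%. Peaks 4 and 9, whose replicates departed from each other in opposite directions, had 46.5% and 40.6%, the highest 2 values among the 9, and the part of base composition in those differences was not tested. Over the 9 peaks the median was 29.7%, beside 36.6% for the 6 peaks of the other genes and 33.7% for all IDR peaks.

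jumu (FBgn0015396, 3R:10350182-10361612, plus strand) encodes a forkhead protein of the same FOXN group as CHES-1-like. Its 2 IDR summits both fell in its first intron, 6811 and 7012 bp from its single TSS. They lie 201 bp apart and the regions overlap by 195 bp, so they count as 1 site when summits within 1000 bp are merged. The first, at 10356993, had a signal of 126 in the pool, 55.0 in replicate 1 and 66.8 in replicate 3. The second, at 10357194, had 72.3 in the pool, and the region with the nearest summit had 25.6 in replicate 1 (rank 2738) and 47.1 in replicate 3 (rank 1646). Neither peak is near the promoter, where the highest pooled region reached 29.3 (rank 10447). A further intronic region, 1293 bp from the TSS, had a pooled signal of 60.8 (rank 2490), just below the IDR list.

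FoxK (FBgn0036134, 3L:11114169-11120783, minus strand) had its IDR summit at 11118805, in its first intron and 339 bp upstream of an internal TSS, one of 4. It had a signal of 94.9 in the pool, 54.1 in replicate 1 (rank 634) and 35.3 in replicate 3 (rank 2895). In replicate 3 the summit lay 104 bp from that of the IDR peak. The windows of the mitochondrial ribosomal protein gene mRpL2 and the phosphate transporter gene NaPi-III hold this summit too, from 2042 and 4543 bp away in that order. FoxK has close neighbours, and 9 of the 14 pooled regions in its window had another gene's TSS nearest.

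The sequences at the jumu and FoxK summits carry the TAAACA matches found among the 15 peaks. They are shown because no CHES-1-like peak had one within 50 bp. Capitals mark TAAACA or its reverse complement and, in the second jumu peak, GAGAG on the minus strand. The jumu peaks are at 3R:10356943-10357043 and 3R:10357144-10357244 and the FoxK peak at 3L:11118755-11118855, all plus strand of dm6.
jumu peak 1: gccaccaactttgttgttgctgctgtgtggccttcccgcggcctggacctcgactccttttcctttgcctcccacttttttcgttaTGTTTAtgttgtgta
jumu peak 2: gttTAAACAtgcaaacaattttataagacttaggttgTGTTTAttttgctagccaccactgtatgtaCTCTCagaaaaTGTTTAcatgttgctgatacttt
FoxK peak 1: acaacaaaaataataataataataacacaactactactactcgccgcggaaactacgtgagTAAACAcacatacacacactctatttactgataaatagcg

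bin (biniou, FBgn0045759, 3L:6990622-6994447, plus strand), the FoxF gene of the visceral mesoderm, had its only IDR summit 1440 bp upstream of its TSS, at 6989182. Its pooled signal of 66.1 (rank 2169) stood close to the lower end of the IDR list. It was 23.5 in replicate 1 (rank 3254) and 45.6 in replicate 3 (rank 1761). FoxL1 (FBgn0004895, 3L:4018878-4021279, plus strand) also had its summit upstream, at 4016999, 1879 bp before its TSS. The signal there was 72.1 in the pool, 25.4 in replicate 1 (rank 2783) and 46.4 in replicate 3 (rank 1691). At both genes the peak was among the highest 2226 regions of replicate 3 and below them in replicate 1. Neither gene had a pooled region within 500 bp of a TSS. The bin summit also lies in the windows of CG43439 and CG32388, and the FoxL1 summit in that of Mul1, but in each case the nearest TSS was that of the forkhead gene.

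foxo (FBgn0038197, 3R:14056945-14087978, plus strand), the transcription factor held back by insulin signalling, has a window of 37.0 kb, longer than the 33.0 kb of CHES-1-like. It held 25 pooled regions, 1 more than CHES-1-like, but only 1 in the IDR list. That summit, at 14052326, lay 4619 bp upstream of the distal TSS, with a signal of 107 in the pool, 41.8 in replicate 1 and 64.4 in replicate 3. A second upstream region, 3307 bp from the TSS, had 59.8 in the pool (rank 2569), just outside the IDR list, and 36.0 in replicate 1 (rank 1419), but 23.3 in replicate 3 (rank 7253). In the gene body no pooled region exceeded 49.8, and near the distal TSS none exceeded 36.1 (rank 6792).

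croc (FBgn0014143, 3L:21474133-21476479, minus strand), the FoxC gene crocodile, had 6 pooled regions and none in the IDR list. Its highest, over the coding exon, had a signal of 21.5 (rank 19366). Replicate 1 had a region of 25.6 (rank 2740) centred 186 bp upstream of the TSS, and replicate 3 had none within 500 bp of it. Replicate 1 also had a region of 22.2 (rank 3678) 3376 bp upstream, where neither the pool nor replicate 3 had one. FoxP (FBgn0262477, 3R:9726020-9730872, minus strand) had 2 pooled regions in its window. Both lay downstream of the gene at the promoter of hyd, the higher with 43.2 (rank 4744), and the pooled list held no region in the FoxP gene body. Replicate 1 alone had a region in the body, of 8.12 (rank 28648), close to the lowest value of its list. It alone also had a region 823 bp upstream of the FoxP TSS, of 12.2 (rank 13351). At this depth of list, binding at FoxP itself was not detectable in the pool.

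Set against the other 7 genes, CHES-1-like had a larger share of high regions. IDR summits numbered 2.72 per 10 kb of window at CHES-1-like and 0.574 per 10 kb over the other 7, a ratio of 4.74, beside 0.172 per 10 kb of the X chromosome and 0.166 per 10 kb of all arms. Pooled regions of any rank numbered 7.26 per 10 kb at CHES-1-like and 6.41 per 10 kb at the other 7 together, against 2.24 over all arms. Single genes among the 7 ranged from 1.84 per 10 kb at FoxP to 11.1 per 10 kb at FoxK, so CHES-1-like lay within their range. Of its 24 pooled regions 37.5% were in the IDR list, against 8.96% of the 67 of the other genes and 7.42% of the whole list. The replicate lists gave the same order, but they rest on the same 2 libraries as the pool, so this is no independent support. In replicate 1, 42.9% of the 21 regions at CHES-1-like were among the highest 2226, against 10% of the 50 at the other genes. In replicate 3 these shares were 28.6% of 28 regions at CHES-1-like and 8.20% of 61 at the other genes. These are descriptions of 1 gene known to have many peaks, and no test stands behind them.

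The peaks of CHES-1-like were mostly above the list's median signal, although peak 9 (rank 1974) was near the lower end of the list. Their median pooled signal was 112 (range 69.8 to 185), against 83.6 (66.1 to 126) for the 6 peaks of the other genes and 97.5 for the list. Of the 9, 6 were above the list median, and of the other 6 peaks, 2 were (jumu peak 1 and foxo). The ranges overlapped widely.

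Counts of 9 or more IDR summits were reached by 0.033% of all annotated genes, 6 in number. The highest count over all annotated genes was 11, at a gene that is not protein-coding. Among protein-coding genes, 5 had 9 or more and only ush had more than CHES-1-like, with 10. Window length bears on such counts. Of 418 other protein-coding genes whose windows are within 20% of its length, 257 had no IDR summit, the median was 0 and the highest count was 7. The 5 protein-coding genes most like CHES-1-like in number of summits (within 1) and then in window length were Raf, ush, sbb, CG1677 and kirre. Their windows were all longer, at 54.4, 70.3, 85.1, 131 and 400.1 kb in that order, and their densities were 1.65, 1.42, 0.940, 0.689 and 0.225 summits per 10 kb.

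**Figure D3:**
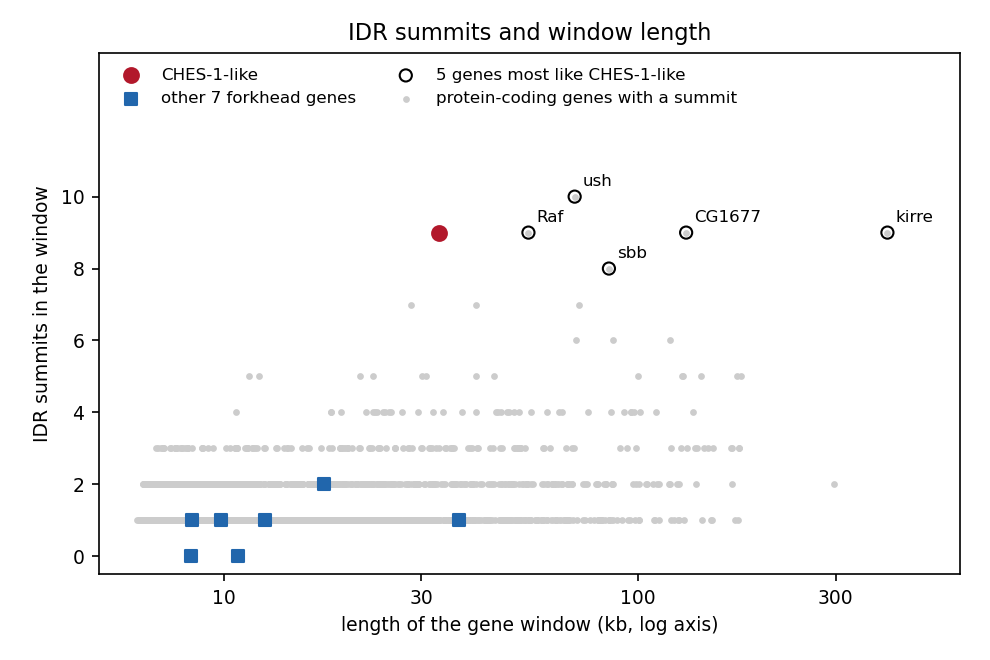
IDR summits per gene window (vertical axis) against window length in kb (horizontal log axis) for protein-coding genes with at least 1 summit (grey) and the 8 forkhead genes (red and blue). CHES-1-like has 9 summits in 33.0 kb, while the 5 circled genes with 8 to 10 summits have windows of 54.4 kb or more; the blue square for foxo stands at a similar window length with 1 summit.

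By position, of the 15 summits, 11 fell in an intron of their gene, and all 11 were in a first intron. Over the whole IDR list 38.9% of summits lay in a first intron of a protein-coding gene, which is 74.6% of the summits in an intron of one. Of the 11, 8 belong to CHES-1-like and 2 to the overlapping jumu regions. The remaining summits were the exon 1 peak of CHES-1-like and the 3 upstream peaks of bin, foxo and FoxL1. None of the 15 fell in a coding exon, and the share of all IDR summits that did is not given here.

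Signal was higher in replicate 3 than in replicate 1 for most of the IDR list, with a median log2 ratio of 0.60 and an SD of 0.52 over 2220 peaks matched in both. The median log2 ratio was 0.63 (SD 0.79, n = 9 peaks) at CHES-1-like and 0.45 at the other genes. The 6 peaks of the other genes hold only 5 distinct pairs of values, since both jumu peaks overlap the same replicate regions. With the region of the nearest summit within 100 bp, which leaves FoxK out, the median at the other genes was 0.87 (n = 5 peaks), and that at CHES-1-like was 0.63. Of the 15 peaks, 73.3% (11) lay within 1 SD of the list median, beside 70.6% of all 2220, a similar share. CHES-1-like had 6 of its 9 peaks within 1 SD. The 4 that did not were CHES-1-like peak 4, which was 1.32 above that median on the log2 scale, peak 8, which was 0.62 above, and CHES-1-like peak 9 and the FoxK peak, which stood apart by -1.60 and -1.22. For peak 9 and FoxK the log2 ratio itself was below 0 (-0.997 and -0.62), as it was for 13.4% of all IDR peaks. In both replicates at once, 10 of the 15 were matched to a region among the highest 2226, 7 of them at CHES-1-like. The second jumu peak counts among the 10 only through its overlap with the region of the first. The same share over all IDR peaks is not given here, so this count is a description only.

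**Figure D4:**
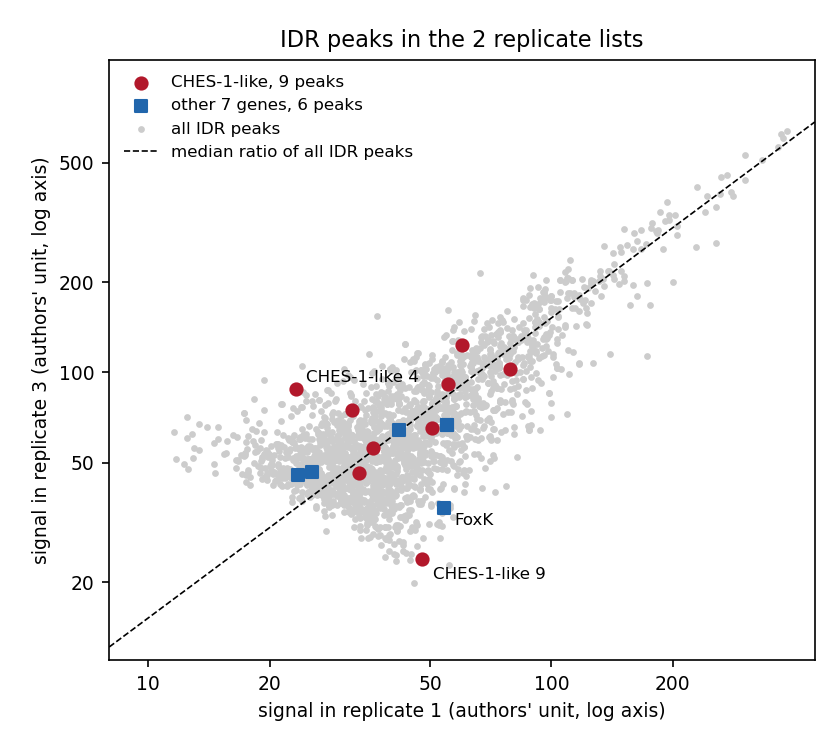
Signal of each IDR peak in replicate 3 (vertical log axis) against replicate 1 (horizontal log axis), in the authors' unit, with the 9 CHES-1-like peaks in red, the 6 of the other genes in blue and all 2220 matched peaks in grey. The dashed line is the median ratio (log2 0.60); CHES-1-like peak 4 lies above it and CHES-1-like peak 9 and FoxK below it, and the 2 jumu peaks share 1 point because both overlap the same replicate regions.

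Motifs were counted on both strands within 50 bp of the summit, and a match is only a run of letters. TAATTA was found at 2 of the 15 peaks, CHES-1-like peaks 1 and 2, its 2 highest, against 7.73% of all IDR peaks. CAATTA was found at 1 (CHES-1-like peak 6), against 10.1% of all. TAAACA was found at 3, none of 9 at CHES-1-like and 3 of 6 at the other genes, against 15.9% of all, and the second jumu peak held 3 copies. Within 100 bp it was found at 6, of which 1 was at CHES-1-like and 5 were at the other genes, against 26.9% of all. GAGAG, a site of the Trithorax-like protein, was found at 3, of which 1 was at CHES-1-like, against 10.4% of all. The Zelda core CAGGTA and the sequence ATCGAT of DREF and BEAF-32 were at none of the 15, against 1.71% and 5.17% of all IDR peaks. With 15 peaks, of which 9 are from 1 gene and 2 overlap, these shares are a description only.

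Other genes of the family and of 2 related pathways give a background for the 8. Of 10 further forkhead genes matched to the annotation, 3 (30%) held an IDR summit, near the 21.3% of all genes, with 1 each: slp2 (signal 281), fkh (133) and slp1 (76.6). Insulin and FOXO signalling, the pathway around foxo, had a summit at 12 of 26 matched genes (46.2%), against 21.3% of all genes. Mekk1, which the list spells otherwise and which was added after seeing the data, had 1 summit and makes this 13 of 27. The highest were Sesn (325, nearest to the TSS of Alg3), the insulin receptor gene InR (227), the kinase gene sgg (215) and ImpL2 (201). Sesn encodes sestrin, and ImpL2 encodes a secreted binder of insulin-like peptides. The highest region of ImpL2 was equally near to a TSS of CG46460. The kinase gene Akt (106, nearest to Mhcl) and Thor (97.3), the gene of a translation repressor, also held summits. In the visceral mesoderm list around bin, 9 of 17 genes (52.9%) had a summit, against 21.3% of all genes, whose windows are shorter. It was led by Mef2 (488, nearest to Pal1), kirre (198), vimar (173, nearest to Cyp6u1 and Ufsp1) and Fas3 (156). The NK homeobox gene bap had none, and its 1 pooled region had a signal of 17.4. The median number of summits was 1 for the 8 genes, 0 for the other forkhead genes, 0 for the insulin list, 1 for the visceral mesoderm list and 0 for all genes, with median windows of 11.7, 8.45, 12.1, 20.7 and 7.66 kb in that order.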

How the data were processed

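Engrailed-GFP ChIP-seq was available as deposited region lists in narrowPeak form. Per the deposited text descriptions, regions of each replicate and of the pool were called against a control file as input for IDR, and the IDR list was derived from them. For the aligner, caller, IDR threshold and signal scale, no name or value is given in the sources used here. The authors' signal per region is the value used. The deposited −log10 q-value, at its maximum (3.82) in 3340 pooled regions, served in 1 alternative. Lists in build dm3 were not used.

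Gene models were from Ensembl release 115, without transposable elements (18164 genes, 13945 protein-coding), on dm6 coordinates. A promoter is within 500 bp of a TSS. Replicate regions were matched to an IDR peak by an overlap of at least 1 bp, taking the highest signal. Python 3.11.15, pandas 2.3.3 and scipy 1.17.1 were used, and the counting scripts were tested on simulated data. Genes named are the 8 members, neighbours whose window holds or whose TSS is nearest to a member summit, the 5 genes most like CHES-1-like, and up to 4 genes of highest signal per list. Akt, Thor and bap were named after their values were seen. Of the listed genes fd68A and Tor were not matched under those names. Whether the annotation holds them under other names is not given here. Akt1 is another name of the matched Akt, and MEKK1 was missed through letter case (Mekk1 in the annotation). Members, lists and motifs were chosen with earlier results of these data known. No label says whether the replicates were collected separately.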

Additional observations from a re-analysis of the deposited data

How the results depend on the processing

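CHES-1-like had between 6 and 10 summits over the alternatives run, the 6 with only IDR peaks above the list's median signal. Of 57 alternative values, 8 moved beyond the limits set for counts or beyond the counting interval of a motif share, which is wide for 15 peaks. That interval treats the peaks as independent, although most come from a single gene and all share the same libraries. The number of the 8 genes with an IDR summit fell to 3 with the gene body and 1000 bp upstream, with the gene body alone, and with only IDR peaks above the list's median signal. Summits at the other 7 genes fell to 3, 3 and 2 in those settings, and their density to 0.191 per 10 kb with the peaks above the median. Upstream peaks of bin, foxo and FoxL1 lie outside the shorter windows by construction. The share of all annotated genes with a summit can only fall in these settings too, and it is not given here. CAATTA was found at 33.3% of the 15 peaks within 100 bp, against 6.67% within 50 bp. In the same window TAAACA was found at 40% (20% within 50 bp), GAGAG at 33.3% (20%), and CAGGTA and ATCGAT at 6.67% each (0 within 50 bp). TAATTA stayed at 13.3%. A wider window cannot lower such shares, and those of all IDR peaks rose. Within 100 bp they were 18.9% for CAATTA (10.1% within 50 bp), 26.9% for TAAACA (15.9%) and 23.1% for GAGAG (10.4%). For CAGGTA they were 4.22% (1.71%) and for ATCGAT 9.03% (5.17%).

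With the highest 2226 regions of 1 replicate in place of the IDR list, the genes with a summit numbered 4 to 5. CHES-1-like had 8 to 9 summits (2.42 to 2.72 per 10 kb), and the other 7 genes had 5 in either replicate (0.478 per 10 kb). bin and FoxL1 lost their summit without replicate 3, and FoxK lost its summit without replicate 1. Matching replicate regions by the nearest summit within 100 bp, chosen after seeing the data, gave a median log2 ratio of 0.68 in place of 0.62. No paired analysis was possible because there is 1 group. Read depth and the control are unknown here, so a region outside a list is not shown to lack binding.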
